A study of Ocimum americanum with 4 samples.

Results

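F-box proteins were taken as the unigenes whose best Swiss-Prot match carries a description containing "F-box" in any case, leaving out the 13 whose description names EIN3, gibberellin, auxin or Adagio. By this rule 288 of the 42816 unigenes assembled from basil leaves were F-box unigenes. The rule used the annotation only and no measured level. Their descriptions name 158 different proteins, of which the best match came from Arabidopsis for 265 unigenes, from rice for 11, from petunia for 1 and from animals or yeasts for 11. A name therefore stands for the most similar protein in another species and not for a tested function in basil. A second search, against the nr protein collection, also named an F-box protein for 160 of the 288.

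F-box proteins are the exchangeable part of SCF complexes, a class of E3 ubiquitin ligases. In such a complex a cullin forms the scaffold, a RING-box protein brings in the E2 enzyme that carries ubiquitin, and a SKP1-like adaptor holds the F-box protein. The F-box motif binds the adaptor, and the rest of the protein, often leucine-rich repeats (LRR), kelch repeats or a lectin-like domain, picks the protein that is marked with ubiquitin and then degraded. Plants carry large F-box families, and known members act as hormone and light signalling parts, in the cell cycle, in immunity and in organ growth.

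The libraries came from leaves of 30-day-old plants of *Ocimum americanum* var. *pilosum*, a basil, grown at 21 °C by the sample labels, where the study's methods give another temperature. Untreated control plants gave 2 libraries, and plants moved to a chamber at 4 °C for 12 h gave the other 2. By the study's methods, control plants stayed at the normal temperature under otherwise equal conditions during the chilling. The question was which transcripts differ after chilling. All plants were of the same variety and carried no transgene or mutation in the labels. How many plants were pooled in each library and the hour of harvest are not given in the sources used here, so cold and time of day cannot be told apart. The replicates of a treatment are described as biological and harvested at the same time, and the p-values below measure the spread between these libraries only.

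The values are FPKM, fragments scaled to the length of the unigene and to the mapped reads of the library, as deposited. Over all unigenes the control libraries total 875599 and 874864 FPKM. The chilling libraries total 773457 and 772255, a lower sum than the control. The reads behind a single FPKM value are unknown. Leaf cells were clearly present: the 26 unigenes matching Rubisco small chain, Rubisco activase or chlorophyll a-b binding proteins summed to 46889 and 46754 FPKM in the control and to 16539 and 16527 after chilling. The 7 unigenes matching names of peltate gland enzymes summed to 470 and 458 FPKM in the control and to 434 and 435 after chilling. Within that sum members moved apart. The geraniol synthase match had 116 and 117 FPKM in the control and 185 and 186 after chilling. The chavicol O-methyltransferase match had 257 and 248, then 190 and 190, and the eugenol synthase match was also lower. The name search also took in a geranyllinalool synthase match, Ob_29994, which was called lower. The 3 unigenes matching flower organ genes summed to between 142 and 152 FPKM in every library, of which the AGAMOUS match Ob_31628 alone gave 117 to 139 FPKM although the labels name leaves only. A low DEFICIENS match, Ob_17363, rose within that sum, from 0.99 and 1.61 FPKM in the control to 6.18 and 7.08 after chilling. The part of these cell type markers in the results below was not tested. In whole leaves, fewer cells of a type and less RNA per cell cannot be told apart.

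Most F-box unigenes were expressed at a modest level. The median of their mean FPKM over the 4 libraries was 7.0, against 3.0 over all unigenes and 7.20 over the unigenes with a Swiss-Prot match. Mean FPKM was at least 50 for 10 members, 10 to 50 for 100, 1 to 10 for 158 and under 1 for 20. Those 20, the highest with a mean of 0.965, were left out of the test, and 268 members were tested. The highest level belonged to Ob_20950, a match to SKIP8 (SKIP stands for SKP1-interacting partner), with 151 and 141 FPKM in the control and 153 and 155 after chilling. Its groups did not overlap, but they differed by only 1.05-fold and the change missed the threshold (adjusted p = 0.09 from limma). Ob_18775, a match to At3g12350, followed with 87.5 and 87.7 FPKM in the control and 110 and 110 after chilling, and Ob_29585, a match to SKIP23, with 101 and 97.2 in the control and 66.0 and 67.3 after chilling. FPKM values are divided by length and can be set side by side between unigenes. These high members moved by less than 2-fold.

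The summed FPKM of all 288 members was nearly the same in the 4 libraries, at 3428 and 3431 in the control and 3438 and 3434 after chilling, a ratio of 1.00. As a share of each library's total FPKM it was 0.392% and 0.392% in the control and 0.444% and 0.445% after chilling, because the totals differ. Beneath this equal sum, classes of F-box proteins moved apart. The kelch class summed to 639 and 651 FPKM in the control and to 513 and 487 after chilling, and the class with a phloem protein 2 (PP2) domain to 118 and 113 in the control and to 60.3 and 60.6 after chilling. The members whose best match is an animal or yeast protein summed to 184 and 190 FPKM in the control and to 264 and 257 after chilling. These sums carry no test.

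**Figure D1:**
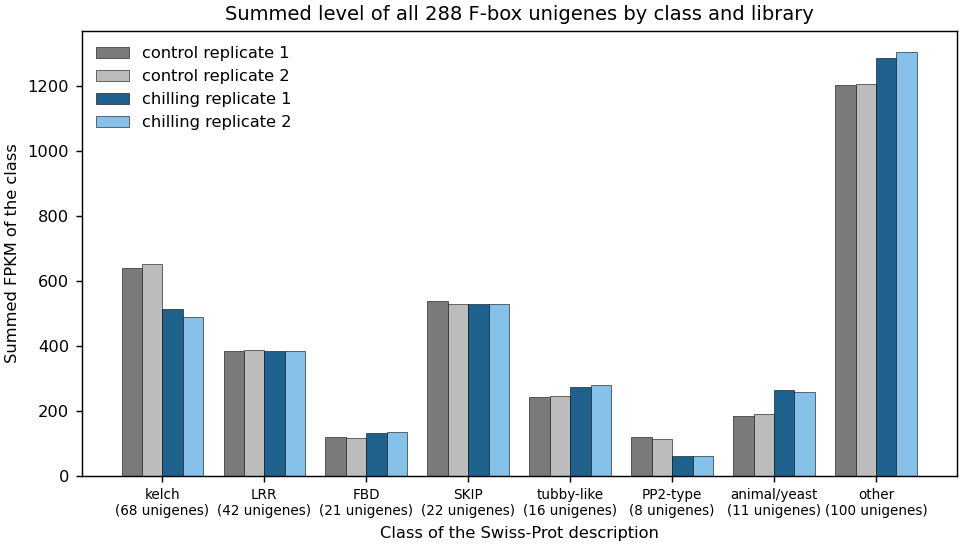
Summed FPKM of the 288 F-box unigenes in each of the 4 libraries, by class of the Swiss-Prot description. Bars stand for single libraries and start at 0. The kelch and PP2-type sums were lower in both chilling libraries, while the sums of the animal or yeast matches were higher.

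A unigene is called higher or lower here where limma, fitted to log2(FPKM + 1) of 33036 unigenes (those whose mean FPKM reached 1), gave a Benjamini-Hochberg adjusted p of at most 0.01 and mean FPKM differed at least 2-fold. Log2 changes are chilling minus control on that log2(FPKM + 1) scale, with their standard error (n = 2 libraries per treatment), and understate the change of low unigenes. Folds are ratios of mean FPKM. Of the 268 tested F-box unigenes, 25 were called higher (9.33%) and 35 lower (13.1%), against a background of 11.9% higher and 13.8% lower over all tested unigenes. Both shares lie near the background, so the counts themselves are no result about F-box proteins. Their median log2 change was -0.06, with the middle 50% between -0.49 and 0.33, and that of all tested unigenes was 0.00. At the adjusted p alone, without the 2-fold rule, 60 were higher and 57 lower, against backgrounds of 24.6% and 23.3%, and 57 of these 117 moved by less than 2-fold.

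The balance between the directions depended on the scale. Rescaling each library to a common total (TPM) moved the median log2 change of all tested unigenes from 0.00 to 0.14 and that of the F-box unigenes from -0.06 to 0.09, and then 35 were called higher and 29 lower. The share of higher among called members was 41.7% on the FPKM scale and 54.7% on the TPM scale, and over all tested unigenes it was 46.3% and 58.5%, so no direction is given for the family as a whole. By size, 14 called members were at least 4-fold lower and 3 at least 4-fold higher. No such count over all tested unigenes stands beside these, so they are no result about F-box proteins. Among the called members, 6 of the higher and 8 of the lower had an FPKM under 1 in at least 1 library. Leaving out 1 library at a time gave 18 higher and 21 lower without control replicate 1, 18 and 22 without control replicate 2, 14 and 23 without chilling replicate 1, and 12 and 22 without chilling replicate 2. Over all unigenes the calls fell in the same fits from 3917 higher and 4548 lower to between 1748 and 2425 higher and between 2251 and 2355 lower, so calls were lost over the whole table and not in F-box unigenes alone. Such a fit sets 1 library against 2, and its spread comes from the treatment that keeps both libraries and from the prior over all unigenes, so the lone library is assumed to vary like the others. Of the original calls, 12 higher and 20 lower held in all 4 of these fits.

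**Figure D2:**
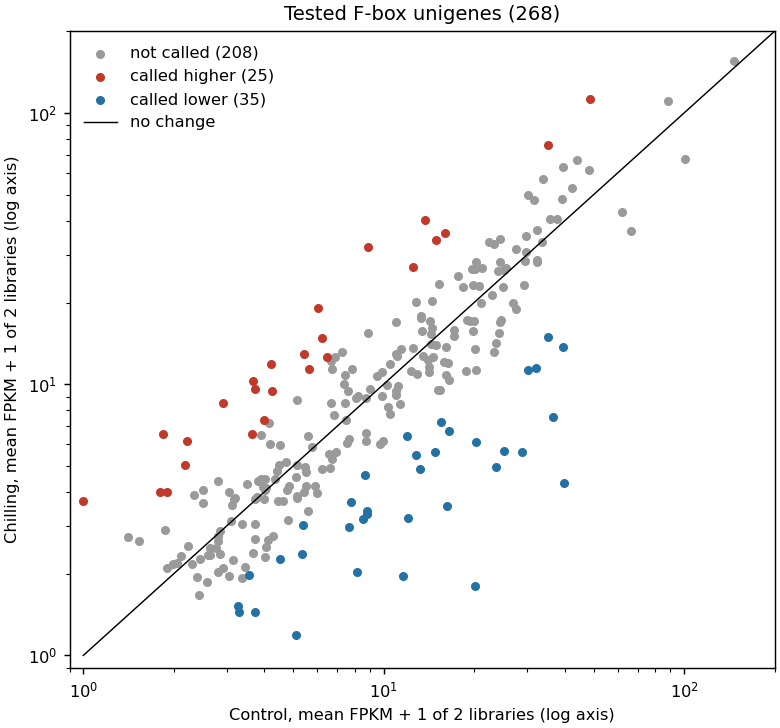
Mean FPKM + 1 of each of the 268 tested F-box unigenes in the control (x axis) and after chilling (y axis), both on log axes, with the 25 called higher and the 35 called lower in colour and a line of no change. Most points lie near the line, and the unigenes farthest from it lie below.

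The F-box unigenes with the largest change after chilling were lower. Ob_08002, a match to Tubby-like F-box protein 7, had 17.3 and 21.0 FPKM in the control and 0.88 and 0.74 after chilling, a 23.6-fold lower mean (log2 change -3.47 ± 0.14, adjusted p = 3.2e-06 from limma). Tubby-like proteins carry a domain that binds phosphoinositides in membranes. The other unigene with that best match, Ob_29945, did not follow: its FPKM was 31.9 and 30.9 in the control and 27.2 and 28.4 after chilling (log2 change -0.17). Ob_27113, a match to At2g32560, had 38.3 and 39.1 FPKM in the control and 3.21 and 3.40 after chilling, 11.7-fold lower (log2 change -3.21 ± 0.08, adjusted p = 2.9e-07). The 2 other matches to At2g32560 stayed within 1.5-fold, with log2 changes of -0.34 for Ob_22253 and 0.07 for Ob_35359. Ob_12895, a match to F-box only protein 6, known in Arabidopsis for its effect on leaf curling, had 10.7 and 10.5 FPKM in the control and 1.21 and 0.71 after chilling (log2 change -2.58 ± 0.17, adjusted p = 2.9e-05). In each of these 3 unigenes both chilling libraries lay far below both control libraries, and the calls held in every fit with 1 library left out.

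**Figure D3:**
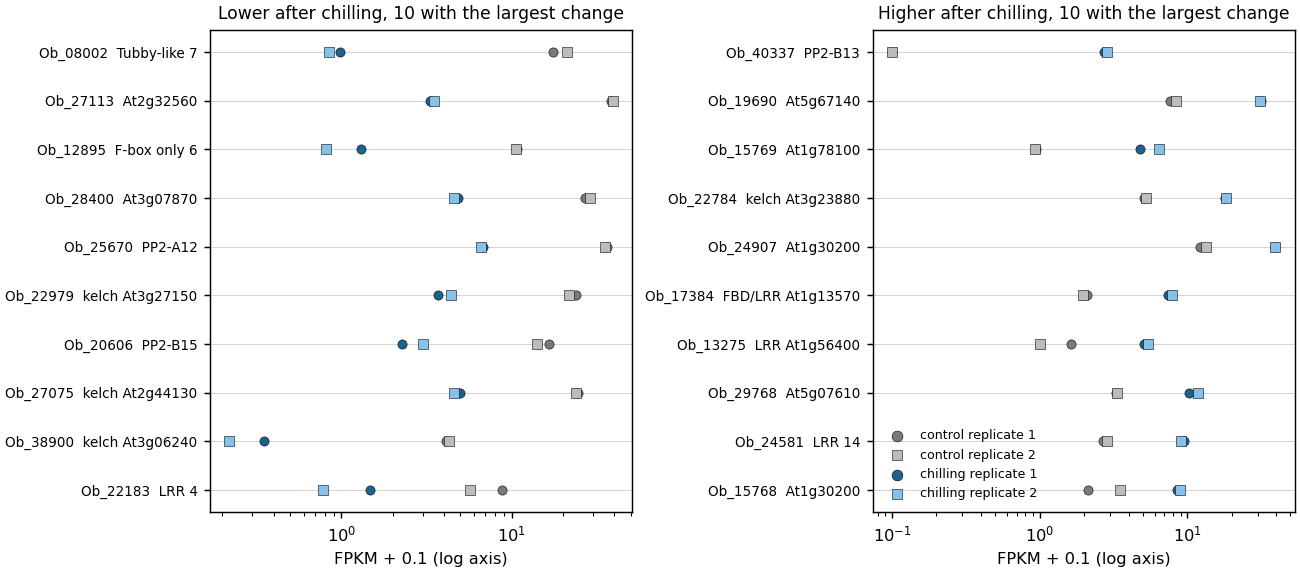
FPKM + 0.1 in each of the 4 libraries (log axis) for the 10 called F-box unigenes with the largest log2 change in each direction. Points are single libraries, and in every row the pair of chilling libraries lies apart from the pair of control libraries. PP2-B13 (Ob_40337) is listed at 0 in both control libraries.

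On the higher side, the changes were smaller and often started from a low level. Ob_19690, a match to At5g67140, had 7.56 and 8.23 FPKM in the control and 31.4 and 30.8 after chilling, 3.93-fold higher (log2 change 1.85 ± 0.07, adjusted p = 2.5e-06). Ob_24907, a match to At1g30200, had 12.1 and 13.3 FPKM in the control and 39.4 and 39.2 after chilling, 3.10-fold higher (log2 change 1.56 ± 0.07). The second match to At1g30200, Ob_15768, also rose, from 2.03 and 3.42 FPKM to 8.40 and 8.86. Its call was lost without chilling replicate 1 or chilling replicate 2, with an adjusted p of up to 0.036. Ob_15769 matched At1g78100, an F-box protein that auxin induces in Arabidopsis, but at an expectation value of 9e-06, close to the limit of the search. Its FPKM was 0.84 and 0.83 in the control and 4.72 and 6.34 after chilling, a 6.62-fold higher mean, and the call was lost without control replicate 1, control replicate 2 or chilling replicate 2 (adjusted p of up to 0.013).

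At higher levels, Ob_22803 rose by just over 2-fold. It matched At1g61340, an F-box protein known in Arabidopsis as FBS1 for its induction by stress. Its FPKM was 50.7 and 44.6 in the control and 110 and 112 after chilling, 2.33-fold higher (log2 change 1.21 ± 0.06, adjusted p = 7.2e-06). Of the other 2 matches to At1g61340, Ob_11444 had 2.86 and 2.57 FPKM in the control and 2.66 and 2.86 after chilling and was not called, and Ob_05118 was too low to test. Ob_24648, which matched At4g35930 (FBS4 in Arabidopsis), had 12.4 and 11.3 FPKM in the control and 3.91 and 5.07 after chilling, 2.64-fold lower. That call was lost without control replicate 1 or control replicate 2 (adjusted p of up to 0.021). Ob_22857, a match to At1g55000, had 33.9 and 34.5 FPKM in the control and 74.0 and 75.7 after chilling, 2.19-fold higher (log2 change 1.11 ± 0.04, adjusted p = 1.3e-06), the most abundant called member after Ob_22803.

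Matches to known hormone and light signalling proteins were found among the calls in both directions. Ob_33893 matched MAX2 homolog A of petunia. MAX2 is the F-box protein of strigolactone and karrikin signalling, and its substrates are repressors of growth responses. Its FPKM was 7.11 and 7.97 in the control and 2.15 and 2.23 after chilling, 3.44-fold lower (log2 change -1.42 ± 0.14, adjusted p = 1.7e-04). Ob_27237 matched the phytochrome A-associated F-box protein, EID1, which in Arabidopsis dampens far-red light signalling. It had 31.4 and 27.2 FPKM in the control and 10.1 and 10.6 after chilling, 2.84-fold lower (log2 change -1.42 ± 0.09, adjusted p = 1.8e-05). The match to EID1-like F-box protein 1, Ob_26507, was not called, with 23.9 and 24.2 FPKM in the control and 22.2 and 21.6 after chilling. A light-related member on the higher side was Ob_17120, a match at an expectation value of 8e-10 to At2g16365, known in Arabidopsis as the phytochrome B-binding protein PCH1. Its FPKM was 11.7 and 11.3 in the control and 26.2 and 25.9 after chilling, 2.26-fold higher. The second match to At2g16365, Ob_30727, was not called, at 15.01 and 15.1 FPKM in the control and 11.9 and 13.4 after chilling.

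Gibberellin acts through F-box proteins that mark DELLA repressors for degradation. The match to GID2, Ob_17800, had 24.9 and 28.2 FPKM in the control and 18.0 and 17.9 after chilling. Its adjusted p was 8.2e-04 and its change less than 2-fold (log2 change -0.54), so it was not called. Ob_09902 matched SNE, a relative that can take the same place in Arabidopsis, and was low throughout, with 2.81 and 1.76 FPKM in the control and 0.52 and 0.51 after chilling. It was called lower (adjusted p = 0.0061), but not without chilling replicate 1 or chilling replicate 2 (adjusted p of up to 0.054) nor with replicate number as a block, and its mean fell under the filter without control replicate 1. The 2 matches to the kelch protein At2g44130, from a family that in Arabidopsis marks cytokinin response regulators and phenylalanine ammonia-lyase, were among the more abundant kelch members. Ob_27075 had 24.5 and 23.7 FPKM in the control and 4.88 and 4.49 after chilling, 5.15-fold lower (log2 change -2.14 ± 0.09, adjusted p = 2.7e-06). Its neighbour in the numbering, Ob_27074, had 63.9 and 67.1 in the control and 40.2 and 31.1 after chilling, lower by less than 2-fold (log2 change -0.87, adjusted p = 5.6e-04) and not called.

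In members known for immunity and small RNA, a single match among several was called. CPR30, also called CPR1, keeps immune receptors low in Arabidopsis. Of 6 matches to it, Ob_00862 was called lower, with 8.41 and 7.21 FPKM in the control and 2.61 and 2.22 after chilling (3.23-fold). This call was lost without control replicate 1, control replicate 2 or chilling replicate 2, at an adjusted p of up to 0.013. The most abundant match, Ob_28770, had 23.0 and 23.4 FPKM in the control and 14.4 and 14.5 after chilling and was under 2-fold, and the 6 together summed to 55.1 and 52.7 FPKM in the control and to 45.3 and 46.8 after chilling. FBW2 marks ARGONAUTE1, the slicer of small RNA pathways. Its 4 matches split: the low Ob_26601 was called lower, from 2.04 and 3.44 FPKM to 0.30 and 0.58, whereas the abundant Ob_20422 had 39.5 and 37.4 FPKM in the control and 62.4 and 62.0 after chilling (log2 change 0.68, adjusted p = 2.2e-05), a change under 2-fold. The Ob_26601 call was lost without control replicate 1, chilling replicate 1 or chilling replicate 2 (adjusted p of up to 0.051), its mean fell under the filter without control replicate 2, and its match had an expectation value of only 2e-08.

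Cell cycle and growth members were called in a few cases. Ob_32405 matched F-box/LRR-repeat protein 17, which in Arabidopsis removes inhibitors of cyclin-dependent kinases. Its FPKM was 13.6 and 15.4 in the control and 6.06 and 6.41 after chilling, 2.32-fold lower (log2 change -1.10 ± 0.10, adjusted p = 1.3e-04). SKP2A, a further cell cycle F-box protein, was represented by Ob_25803 with 5.17 and 6.13 FPKM in the control and 10.7 and 11.6 after chilling (log2 change 0.88, adjusted p = 7.4e-04), just under 2-fold and not called. Ob_29147 matched At3g61590, known in Arabidopsis as HAWAIIAN SKIRT for its effect on organ size. It had 14.6 and 16.4 FPKM in the control and 5.44 and 6.0 after chilling, 2.71-fold lower (log2 change -1.30 ± 0.10, adjusted p = 6.6e-05). The neighbour in the numbering with the same match, Ob_29146, was not called, at 13.5 and 13.7 FPKM in the control and 12.6 and 10.6 after chilling. Ob_25735 matched At5g06550, a histone demethylase of the JmjC family that carries an F-box. It was called lower, from 7.31 and 8.33 FPKM to 2.15 and 2.52, and the call was lost without control replicate 2 or chilling replicate 1 (adjusted p of up to 0.013).

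The PP2-type class holds an F-box joined to a lectin-like domain related to phloem protein 2. Of its 8 members 7 were tested, and 3 were called lower (42.9%) and 1 higher (14.3%), beside 13.8% and 11.9% of all tested unigenes. Ob_25670, a match to PP2-A12, had 36.3 and 35.04 FPKM in the control and 6.68 and 6.48 after chilling, 5.42-fold lower (log2 change -2.27 ± 0.07, adjusted p = 7.3e-07). Ob_20606 (PP2-B15) had 16.4 and 14 FPKM in the control and 2.18 and 2.92 after chilling, 5.96-fold lower. Ob_22277 (PP2-A13) had 31.6 and 30.5 in the control and 9.57 and 11.4 after chilling, 2.97-fold lower. These 3 were among the 4 most abundant members of the class in the control, and their calls held whichever library was left out. Ob_22931 (PP2-A15), also abundant, stayed at 23.2 and 22.7 FPKM in the control against 26.4 and 23.7 after chilling. The higher call was Ob_40337 (PP2-B13), which is listed at 0 in each control library and had 2.64 and 2.75 FPKM after chilling, so no fold is given. Its mean fell under the filter when either chilling library was left out. The median log2 change of the 7 tested members was 0.12, against a summed level 1.91-fold lower, since the abundant members carried the sum.

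The kelch class, with 68 members, was the largest named class. Of its 63 tested members 3 were called higher (4.76%) and 9 lower (14.3%), beside the background of 11.9% and 13.8%, and the median log2 change was -0.25. On the TPM scale that median was -0.11 while that of all tested unigenes was 0.14. The summed FPKM of the class was 1.29-fold lower after chilling. Its most abundant member, Ob_32636, a match to At1g67480, had 60.8 and 61.0 FPKM in the control and 42.5 and 41.7 after chilling (log2 change -0.52), lower by less than 2-fold. Ob_38900, a match to At3g06240, was the kelch member with the largest ratio, 22.1-fold lower at 4.01 and 4.18 FPKM in the control and 0.25 and 0.12 after chilling. In nr its best match was an S locus F-box protein of *Antirrhinum*, a family known as the pollen part of self-incompatibility. Of the 5 matches to SKIP11, Ob_35061 was called lower at 11.4 and 10.4 FPKM in the control and 5.53 and 5.36 after chilling, and Ob_04983 at 2.37 and 2.75 in the control and 1.09 and 0.86 after chilling. Both calls sat at the edge of the rule: both were lost on the TPM scale and without any single library (adjusted p of up to 0.015 and 0.058). On the higher side, Ob_13350, a match to OR23, had 4.34 and 4.94 FPKM in the control and 9.99 and 10.8 after chilling, 2.24-fold higher, a call that was lost without control replicate 1, chilling replicate 1 or chilling replicate 2 (adjusted p of up to 0.019).

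**Figure D4:**
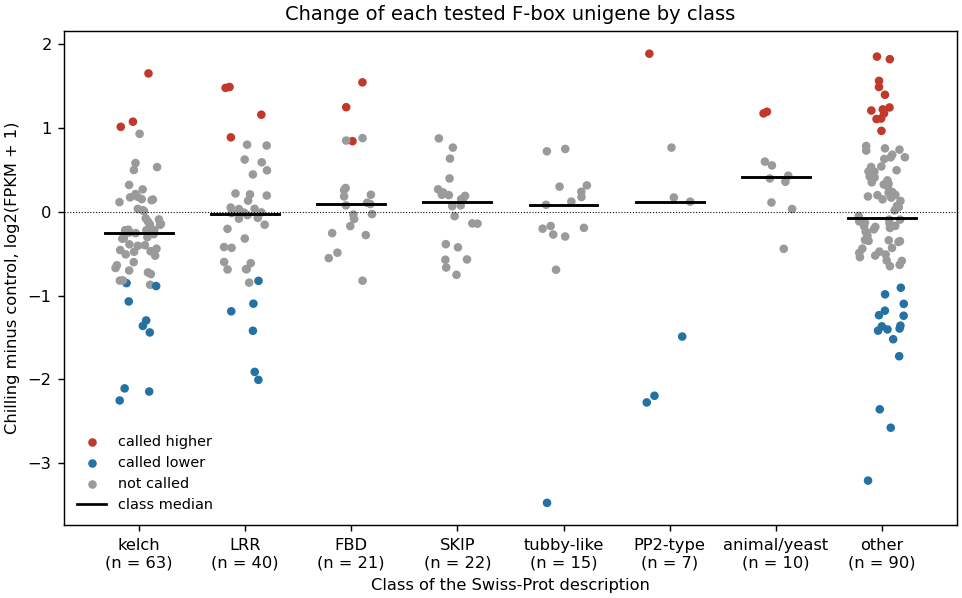
Log2 change (chilling minus control, log2(FPKM + 1)) of each tested F-box unigene by class, with called members in colour and a bar at each class median. The kelch median lies at -0.25 and that of the animal or yeast matches at 0.41, and all SKIP members lie inside the 2-fold rule.

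The LRR class had 42 members, of which 40 were tested, and its median log2 change was -0.03. Of the tested members 4 were called higher (10%) and 6 lower (15%), beside 11.9% and 13.8% of all tested unigenes. Ob_27963, a match to At3g28410, had 11.3 and 10.9 FPKM in the control and 2.13 and 2.30 after chilling, 5.0-fold lower. Ob_22183, a match to F-box/LRR-repeat protein 4, was called 6.96-fold lower, but its libraries were uneven, at 8.72 and 5.62 FPKM in the control and 1.38 and 0.68 after chilling. The call was lost without any single library (adjusted p of up to 0.022). The most abundant LRR member, Ob_26449, shares that match and went the other way, with 30.7 and 30.7 FPKM in the control and 46.6 and 46.9 after chilling (log2 change 0.59), under 2-fold. Ob_24581, a match to F-box/LRR-repeat protein 14, was called 3.45-fold higher, from 2.58 and 2.77 FPKM to 9.46 and 9.01. Ob_13275, a match to At1g56400, was called 4.24-fold higher, from 1.53 and 0.90 FPKM to 4.96 and 5.35, and lost its call without control replicate 2, chilling replicate 1 or chilling replicate 2 (adjusted p of up to 0.026). Of 6 matches to F-box/LRR-repeat protein 15, an F-box protein that in Arabidopsis affects auxin in the shoot tip, 2 low ones were called higher. They were Ob_35921, from 2.80 and 3.21 FPKM to 6.45 and 6.35, and Ob_27312, from 0.96 and 0.63 to 3.09 and 2.89. Neither call held with any library left out (adjusted p of up to 0.032 for each).

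The FBD class, named for a domain found at the end of many plant F-box proteins, had 21 tested members at low levels, the highest at a mean of 17.3 FPKM. By limma 3 were called higher (14.3%) and none lower at the 2-fold rule, beside 11.9% and 13.8% of all tested unigenes. At the adjusted p alone 5 were higher (23.8%) and 1 was lower (4.76%), beside 24.6% and 23.3%, and with 1 library left out the higher calls numbered 1 without chilling replicate 2. Ob_17384, a match to At1g13570, had 1.98 and 1.86 FPKM in the control and 7.28 and 7.75 after chilling, 3.91-fold higher (log2 change 1.54 ± 0.14, adjusted p = 1.1e-04), and was the call that reached an adjusted p of 0.011 without chilling replicate 2. Ob_08875, a match to At1g80470, had 4.47 and 4.4 FPKM in the control and 12.3 and 11.5 after chilling, 2.69-fold higher, in every fit with 1 library left out. The most abundant, Ob_36726, a match to At5g56420, was the 1 lower at the adjusted p alone, with 23.5 and 21.1 FPKM in the control and 12.3 and 12.1 after chilling.

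None of the 22 tested SKIP members outside the kelch class was called by limma at the 2-fold rule. The background was 11.9% higher and 13.8% lower over all tested unigenes. At the adjusted p alone 4 were higher (18.2%) and 3 lower (13.6%), beside 24.6% and 23.3%. On the TPM scale 2 were called higher. These proteins were found as partners of SKP1 and most have no known substrate. The largest change was that of SKP2A (Ob_25803, above), grouped here with the SKIP class. Ob_17234 and Ob_18100, matches to SKIP19, had 17.0 and 18.7 against 9.49 and 10.9 FPKM, and 13.99 and 14.2 against 8.76 and 8.32 FPKM, control against chilling. The 4 matches to SKIP8 summed to 210 and 198 FPKM in the control and to 217 and 217 after chilling.

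Of the tubby-like class, 15 of 16 members were tested, and the Tubby-like F-box protein 7 match given above was the only call. That is 6.67% lower and 0% higher, beside 13.8% and 11.9% of all tested unigenes. The other tested members had log2 changes from -0.69 to 0.75, with the largest at Ob_33908, a match to Tubby-like F-box protein 3. Its FPKM was 32.8 and 33.2 in the control and 56.3 and 56.0 after chilling (adjusted p = 9.6e-06), under 2-fold. The most abundant tubby-like member, Ob_32415, also matched Tubby-like F-box protein 3 and had 41.6 and 41.2 FPKM in the control and 52.0 and 51.4 after chilling. Its numbering neighbour Ob_32416, a match to rice Tubby-like F-box protein 6, had 30.0 and 28.4 in the control and 48.5 and 49.1 after chilling.

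The 11 unigenes matched to an animal or yeast protein had a median log2 change of 0.41 over 10 tested. By limma 2 were called higher (20%) and none lower, beside 11.9% and 13.8% of all tested unigenes, and at the adjusted p alone 6 were higher (60%) and none lower, beside 24.6% and 23.3%. Ob_30276, a match to mouse F-box/LRR-repeat protein 14, had 13.5 and 14.3 FPKM in the control and 32.8 and 33.2 after chilling, 2.38-fold higher (log2 change 1.19 ± 0.06, adjusted p = 7.4e-06). Ob_25322, with the same match, had 42.6 and 43.6 in the control and 68.8 and 62.9 after chilling, under 2-fold. Ob_19531, a match to F-box/LRR-repeat protein 20, was called higher from 2.42 and 4.07 FPKM to 7.83 and 8.99, and lost that call without control replicate 1, chilling replicate 1 or chilling replicate 2 (adjusted p of up to 0.062). The least changed, at a log2 change of 0.03, was Ob_16181, a match to the fission yeast protein pof1. In nr the best match of Ob_30276 was a tomato protein named internalin-A-like. The remaining 100 members, mostly named by an Arabidopsis locus, gave 12 higher (13.3%) and 16 lower (17.8%) calls among 90 tested. The background was again 11.9% and 13.8%, and their median log2 change was -0.07.

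F-box families hold many close copies, and the counting may divide reads between them. In this assembly 61 Swiss-Prot entries were the best match of more than 1 F-box unigene, and together they cover 187 of the 288 members. A shared best match does not make such unigenes copies of each other. In 26 cases the unigenes of such an entry have consecutive numbers. Of the 61 entries, 32 held no call, 9 only higher calls, 17 only lower calls and 3 calls in both directions. Of the 7 entries with at least 2 calls, 2 were higher only, 2 lower only and 3 both. Comparable counts over all shared entries of the assembly were not made, so these counts are no result about F-box proteins. At3g07870 had 3 calls in the same direction: Ob_28400 (26.8 and 28.8 FPKM in the control, 4.75 and 4.49 after chilling), Ob_28399 (38.6 and 38.2, then 13.5 and 12.0) and Ob_21871 (13.6 and 13.99, then 4.48 and 4.80) were all called lower in every fit with 1 library left out. The other 2 matches to it were not called and had positive log2 changes, 0.34 for Ob_28769 (adjusted p = 0.0029, 20.2 and 20.3 FPKM in the control and 25.01 and 26.7 after chilling) and 0.21 for Ob_13613.

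The 3 entries with calls in both directions were At3g27150, At3g23880 and At1g67340. At3g27150 is a kelch protein that a microRNA targets in Arabidopsis. Ob_22979 fell from 23.7 and 21.5 FPKM to 3.60 and 4.32 (5.70-fold, log2 change -2.25 ± 0.11, adjusted p = 6.8e-06). Its numbering neighbour Ob_22978 was called higher, from 1.16 and 0.65 FPKM to 3.53 and 2.49, but that call was lost without any single library (adjusted p of up to 0.07). The opposite movement therefore rests on a low unigene. The other 2 matches, Ob_09118 and Ob_13404, had log2 changes of -0.82 and -0.60 and were not called.

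At3g23880 was the most frequent best match, with 10 members. Ob_22784 was called 3.56-fold higher, from 5.0 and 5.13 FPKM to 17.9 and 18.2 (log2 change 1.65 ± 0.09, adjusted p = 9.2e-06), in every fit with 1 library left out. Ob_14738 was called lower, from 7.36 and 5.98 FPKM to 1.89 and 2.06, and Ob_16031 from 7.52 and 6.02 to 2.51 and 2.87. The former lost its call without control replicate 1, chilling replicate 1 or chilling replicate 2 (adjusted p of up to 0.015) and the latter without any single library (up to 0.028). The other 7 lay between log2 changes of -0.67 and 0.21. The 10 together summed to 77.7 and 79.0 FPKM in the control and to 74.9 and 76.9 after chilling, so the sum hides changes of more than 3-fold in single unigenes. Of the 5 matches to At1g67340, Ob_03608 was called higher, from 1.42 and 0.93 FPKM to 4.31 and 3.78, and Ob_07310 lower, from 3.03 and 3.97 to 1.03 and 1.52. Neither call held with any library left out (adjusted p of up to 0.034 and 0.061), and the most abundant match, Ob_22415, had 17.5 and 19.1 FPKM in the control and 15.9 and 16.3 after chilling.

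**Figure D5:**
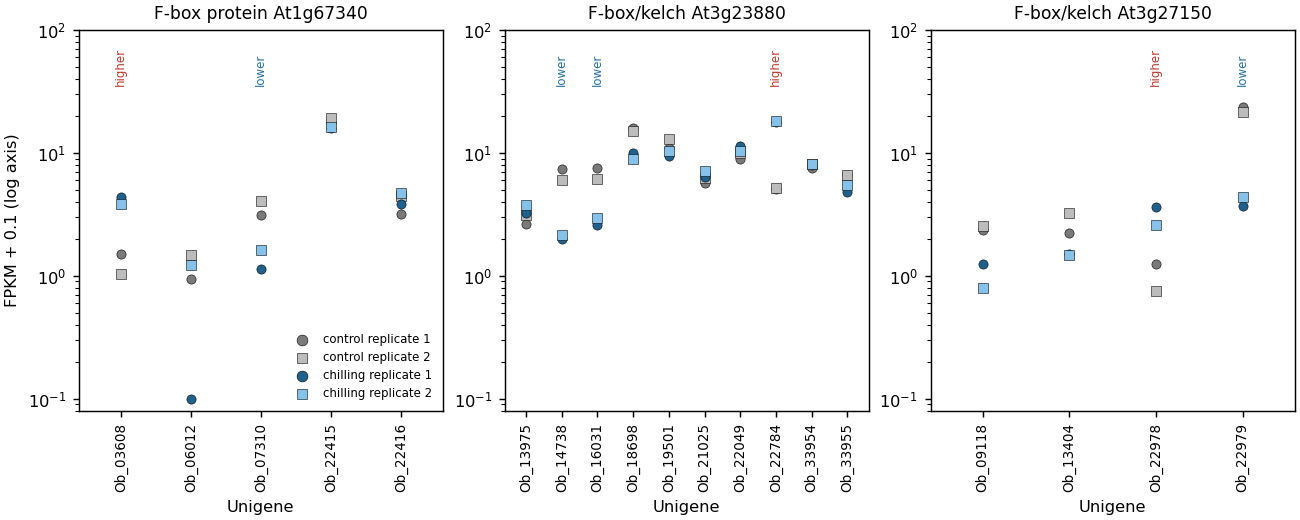
FPKM + 0.1 in each of the 4 libraries (log axis) of all members sharing At1g67340, At3g23880 or At3g27150 as best match. Points are single libraries. In each panel at least 1 unigene lies higher and at least 1 lower in both chilling libraries, and among the 10 matches to At3g23880 Ob_22784 is the member called higher.

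As ligase subunits, F-box proteins act with the rest of the complex. The partner list, chosen by name, held 125 unigenes: SKP1-like adaptors, cullins, RING-box proteins, CAND1, the NEDD8 pathway that activates cullins, the COP9 signalosome that removes NEDD8, and E1 and E2 enzymes. Words of the description alone decided, so the list also took in matches to Cullin-3A, Cullin-3B and Cullin-4 and all E2 enzymes. Whether each of them works with F-box proteins was not tested. Of 106 tested, 6 were called higher and 6 lower (5.66% each, beside 11.9% and 13.8% of all tested unigenes). At the adjusted p alone 45 were higher (42.5%) and 7 lower (6.6%), and the median log2 change of the tested partners was 0.16. The background was 24.6% and 23.3% over all tested unigenes, and 34.4% and 29.4% over those with a mean FPKM of at least 5. The tested partners were abundant, with a median mean FPKM of 18.0 against 6.0 over all tested unigenes. Of the 45 higher, 28 were among the 57 tested E2 enzymes. None of the 6 lower calls held with any library left out. Many partners sat above the control by less than 2-fold. On the TPM scale 12 of 110 were called higher and 2 lower, beside 5214 and 3703 of all 35404 unigenes tested on that scale.

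The most abundant core parts followed that pattern, but not every group did. The 9 tested cullins had a median log2 change of -0.18. At the adjusted p alone 2 were higher (22.2%) and 1 lower (11.1%), beside 24.6% and 23.3% of all tested unigenes. Of the 3 RING-box unigenes 1 was higher and 1 lower by that rule (33.3% each, beside the same background). The most abundant SKP1-like adaptor, Ob_23822 (SKP1-like protein 1B), had 180 and 178 FPKM in the control and 260 and 255 after chilling (log2 change 0.52, adjusted p = 2.5e-06). The most abundant cullin, Ob_35909 (Cullin-1), had 114 and 118 in the control and 137 and 140 after chilling (log2 change 0.25). RING-box protein 1a, as Ob_10963, had 67.9 and 65.6 FPKM in the control and 85.1 and 88.1 after chilling (log2 change 0.37). All 5 SKP1-like unigenes were tested and none was called by limma. At the adjusted p alone 3 of the 5 were higher (60%). Beside this stand 24.6% of all tested unigenes and 34.4% of those with a mean FPKM of at least 5. The lower calls among core parts were low unigenes. They were a further Cullin-1 match, Ob_41165, from 2.58 and 2.53 FPKM to 0.37 and 0.92, and a further RING-box match, Ob_37444, from 2.33 and 1.53 to 0.26 and 0.26.

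Among the regulators, limma called none of the 13 tested COP9 signalosome unigenes and none of 10 in the NEDD8 pathway at the 2-fold rule. At the adjusted p alone 5 of each were higher (38.5% and 50%), and 1 COP9 unigene was lower. The background was 24.6% higher over all tested unigenes and 34.4% over those with a mean FPKM of at least 5. COP9 subunit 6a, Ob_24664, was the most abundant of its group, with 45.9 and 44.4 FPKM in the control and 80.8 and 79.7 after chilling. In the NEDD8 pathway the most abundant unigene, the RUB1 match Ob_24962, had 298 and 292 FPKM in the control and 311 and 299 after chilling. The second RUB1 match, Ob_24963, had 51.2 and 52.1 in the control and 79.1 and 81.2 after chilling (adjusted p = 1.2e-05). The NEDD8-conjugating enzyme Ubc12, as Ob_24456, had 213 and 209 FPKM in the control and 324 and 322 after chilling, 1.53-fold higher (adjusted p = 8.4e-07), and both of these were under 2-fold. CAND1, the exchange factor for F-box proteins, had 28.1 and 28.7 in the control and 32.8 and 31.3 after chilling as Ob_32992. Of 57 tested E2 enzymes 6 were called higher (10.5%) and 4 lower (7.02%), both below the background shares of 11.9% and 13.8%. Ob_14525, a match to E2 11, had 2.70 and 2.17 FPKM in the control and 11.7 and 12.8 after chilling, 5.03-fold higher (log2 change 1.95 ± 0.13, adjusted p = 3.2e-05). The most abundant E2, Ob_18963 (E2 35), had 239 and 250 FPKM in the control and 356 and 355 after chilling, under 2-fold. Ob_40286 (E2 2) was called lower, at 4.77 and 3.0 FPKM against 0.39 and 1.34, and lost the call without any single library (adjusted p of up to 0.095).

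Among the 13 F-box unigenes that the rule left out, 10 were tested. The ethylene-related EIN3-binding F-box protein 1 had 9 matches, of which Ob_05733 was called lower (4.64 and 5.34 FPKM in the control, 1.34 and 1.23 after chilling), and the most abundant, Ob_35915, had 54.2 and 52.0 in the control and 29.2 and 31.2 after chilling. Of 4 matches to auxin signaling F-box proteins, Ob_35711 was called higher from near 0, at 0 and 0.28 FPKM in the control and 1.75 and 2.31 after chilling. The former call was lost without control replicate 2, chilling replicate 1 or chilling replicate 2 (adjusted p of up to 0.015), and the latter without either control library (up to 0.019), while its mean fell under the filter without either chilling library.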

How the data were processed

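The authors trimmed the paired reads of the 4 libraries, pooled them, assembled them with Trinity, kept the longest isoform of each gene of at least 300 bp as a unigene, and computed FPKM with RSEM. The deposited FPKM are rounded to 2 decimals. Best matches are those the authors found with BLASTX at an expectation value of 1e-05, and other versions or builds are not given in the sources used here. Other deposited lists hold the authors' fold change, p-value and FDR from edgeR on read numbers and were not used, nor were the 8 columns of FPKM per library that they repeat.

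Here log2(FPKM + 1) was fitted with limma 3.58.1 in R 4.3.3, with an intensity trend, for the 33036 unigenes whose mean FPKM reached 1 (2 residual and 4.41 prior degrees of freedom), with Benjamini-Hochberg adjustment over all of them. FPKM are not counts, so no count model was run. Thresholds (adjusted p of 0.01, ratio of 2) follow the study's methods. The calls do not: over all tested unigenes this fit called 8465, more than the study reports from edgeR at these thresholds. The depth behind single values is unknown. The procedure was tested on simulated data. Python 3.11.15 with pandas 2.3.3 and numpy 2.4.6 was used for counts and sums.

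Unigenes were named by rule: the 10 largest called changes per direction, called members with a name other than a locus code or bare number, the 6 highest levels, the highest of each class, all members of entries with calls in both directions, and for each partner group the highest level and largest calls. Other members, such as further matches to a named entry and those with a known role, were named after their values had been seen. The F-box rule, classes, partner and marker lists were chosen with earlier results of these data known. Alternatives were a pseudocount of 0.1, a filter at a mean FPKM of 5 or none, scaling by median ratio or to TPM, no trend, a block for the replicate number, an adjusted p of 0.05, no minimum ratio, stricter annotation, and each library left out. Calls limited to unigenes with FPKM of 1 or more in all libraries, and each Swiss-Prot entry counted once, were chosen after seeing the data.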

Additional observations from a re-analysis of the deposited data

How the results depend on the processing

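None of the 68 tested unigenes named by rule reversed its direction under the alternatives run. Calls were lost for 12 of them with no filter, 7 with no trend, 5 on the TPM scale, 5 with a pseudocount of 0.1, 4 with the block and 1 with the median ratio. Further calls were lost with 1 library left out, as given above for single unigenes. Unigenes named outside the rule were not part of this check. The F-box counts of 25 higher and 35 lower changed to 16 and 23 with a mean FPKM of at least 5, to 60 and 57 with no minimum ratio, and to 16 and 22 where nr also had to name an F-box protein, and the 25 higher to 13 at a Swiss-Prot expectation value of at most 1e-20. With a library left out they ranged from 12 to 18 higher and from 21 to 23 lower. Without a minimum ratio, higher calls became 5 for FBD, 9 for LRR, 4 for SKIP, 6 for animal or yeast matches, 5 for kelch, 26 for the other members, 4 for tubby-like, 45 for partners and 3 for the F-box unigenes left out by the rule, and lower calls 1 for FBD, 3 for SKIP, 17 for kelch and 2 for those left out by the rule. With a mean FPKM of at least 5, higher calls became 1 for FBD, 1 for LRR, 0 for PP2-type and 0 for those left out by the rule, and lower calls 2 for LRR, 5 for kelch, 0 for partners and 0 for those left out by the rule. This filter tests fewer unigenes. On the TPM scale, higher calls became 5 for FBD, 2 for SKIP, 12 for partners and 2 for those left out by the rule, and lower calls of partners 2. With no filter, lower calls became 3 for LRR and 1 for partners, and higher calls of animal or yeast matches 1. With no trend these were 3 lower partners and 1 higher animal or yeast match, and with a pseudocount of 0.1 lower partners were 3. At an adjusted p of 0.05, PP2-type members had 2 higher calls, tubby-like members 2 lower and partners 11 lower. The cause of the other changes was not tested.

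With 1 library left out, higher calls ranged from 1 to 3 for FBD, from 1 to 2 for LRR, from 0 to 1 for PP2-type, from 1 to 2 for animal or yeast matches, from 1 to 3 for kelch and from 0 to 0 for those left out by the rule. Lower calls ranged from 3 to 3 for LRR, from 5 to 6 for kelch, from 9 to 10 for the other members, from 0 to 0 for partners and from 0 to 1 for those left out by the rule. The replicate numbers did not pair the libraries: deviations of same-numbered libraries correlated at 0.01, with only 2 pairs. With replicate number as a block, F-box calls were 25 higher and 33 lower.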

Other observations

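The strength of the annotation differed among the members. The 197 F-box unigenes matched at a Swiss-Prot expectation value of at most 1e-20 gave 13 higher (6.88%) and 26 lower (13.8%) calls among 189 tested. Their median log2 change was -0.13. The 91 with weaker matches gave 12 higher (15.2%) and 9 lower (11.4%) calls among 79 tested, with a median of 0.08. The background was 11.9% higher and 13.8% lower. Median mean FPKM was 3.11 for the weaker matches against 9.08 for the stronger. The difference was not tested. The 13 members whose best nr match is a grass protein, among leaves of a basil, had a median mean FPKM of 1.12 and 1 call, Ob_21783, a match to At2g26850, with 20.4 and 18.2 FPKM in the control and 5.29 and 5.0 after chilling.

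Among the 20 members too low to test, Ob_02584, a match to SKIP25, had 0.26 and 0 FPKM in the control and 1.61 and 1.59 after chilling. Both matches to DOR, known in Arabidopsis for its effect on stomatal closure under drought, stayed at or below 1.93 FPKM in every library.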
